A study of Homo sapiens with 16 samples.

Results

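The middle stretch of an RNA chase, from 1.5 to 4.5 h, was followed in control THP-1 cells, an established human monocytic leukaemia line. The comparison takes 4 of the 16 libraries of the series: the 2 control replicates collected at 4.5 h against the 2 collected at 1.5 h. Of 60564 genes in the deposited table, 10553 (17.4%) had a CPM (a read count scaled to a common library total) of at least 5, and 10546 of these were tested, since 7 were listed at 0 in all 4 libraries. The lowest CPM inside this limit was 5.03 and the highest outside it was 5.

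All cells of the series were given 4-thiouridine (4sU, 100 µM) for 1 h and then a uridine medium (10 mM) until collection at 0, 1.5, 4.5 or 7.5 h. The control is wild type for ALKBH5, an enzyme that removes the methyl mark m6A from RNA, and the other arm (A5-KD) is an ALKBH5 knockdown of the same line. Each of the 8 groups of genotype and time held 2 libraries of polyadenylated RNA. The labels do not say that replicates were separate cultures, so p-values measure the spread between these libraries, which may be technical.

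In SLAM-seq a 4sU base left in RNA is sequenced as C in place of T. The conversion rate of a gene is the share of its sequenced T positions that read as C. During a chase with excess uridine the share falls as labelled transcripts are lost and as unlabelled ones join the pool. Transcripts of immediate early genes, chemokines and many transcription factors are known for short lives, and those of ribosomal proteins, metabolic enzymes and the cytoskeleton for long ones. Many short-lived mRNAs carry AU-rich elements in the 3′ UTR, where decay factors such as the ZFP36 proteins bind.

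The AU-rich core TATTTAT was present in the 3′ UTR of several genes that fell in this window. One 27-base site from each of 6 such genes is shown, 5′ to 3′ on the transcript strand, as examples of the motif that the rates are later set against. They are a pair of chemokines, an immediate early factor, a myeloid transcription factor, an interferon-induced gene and a translation factor. Capitals mark TATTTAT, and the letters come from GENCODE 29 transcripts on GRCh38 (hg38).
CCL3, chr17:36088490-36088516, minus strand: aattttaattTATTTATactatttagt
CCL4, chr17:36105467-36105493, plus strand: tcatttccatTATTTATattagtttag
MAFF, chr22:38215915-38215941, plus strand: ccccactgttTATTTATtgcacggatc
ZEB2, chr2:144387149-144387175, minus strand: aagaacaacaTATTTATATTTATtcct
IFIT3, chr10:89340869-89340895, plus strand: ttcaggcatgTATTTATatgtattctt
EIF4A2, chr3:186789725-186789751, plus strand: tttggtattgTATTTATtcaataaagt
The 3′ UTR of ZEB2 held 7 copies, that of MAFF held 2, and those of CCL3, CCL4, IFIT3 and EIF4A2 held 1 each. A match of these letters is a description and not a bound site.

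Library medians over the tested genes were 0.479% and 0.472% after 1.5 h of chase, and 0.318% and 0.329% after 4.5 h. The mean of the medians was therefore 0.475% ± 0.00431 (SD, n = 2) at 1.5 h and 0.324% ± 0.00821 (SD, n = 2) at 4.5 h, and the groups did not overlap. Genes listed at 0 made up between 0.711% and 2.08% of the tested genes in these 4 libraries. How many T positions stand behind a rate was not recorded in the columns used, which leaves the depth unknown. Across genes, which are not independent replicates, the Spearman correlation between replicates was 0.663 at 1.5 h and 0.496 at 4.5 h. The table gives CPM as a single column for no stated library, with ALKBH5 at 4.55, so it does not check the knockdown. Of 25 monocytic marker genes, 22 had a CPM of at least 5, with a summed CPM of 15119. The summed CPM was 45.1 for 14 lymphoid markers, 8.41 for 10 erythroid markers and 8.04 for 8 epithelial markers, and 6, 5 and 1 of these were at 0.

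Most genes had less label at 4.5 h than at 1.5 h. The fitted change, on the log2(rate in percent + 0.05) scale, was below 0 for 7518 genes (71.3%), with a median of −0.37 and quartiles of −0.79 and 0.06. Both 4.5 h libraries lay below both 1.5 h libraries for 4774 genes (45.3% of those tested), and above them for 1179 (11.2%). In the linear model (limma, 8 control libraries, Benjamini-Hochberg adjusted p under 0.05), 76 genes fell (0.721% of those tested) and 3 rose (0.0284%). The other 10467 did not pass, although 1960 lower and 258 higher genes had an unadjusted p under 0.05.

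The number of calls depended on the estimate of the spread. With the spread taken from all 16 libraries, 1009 genes fell (9.57%) and 58 rose (0.55%), among them 75 of the 76. No gene fell (limma) when any 1 library at 0, 1.5 or 4.5 h was left out, with 1171 to 1749 lower genes at an unadjusted p under 0.05, while 100 fell without either library at 7.5 h. When each library was centred on its own median, 20 genes fell (0.19%) and 299 rose (2.84%) relative to the library medians. Centring took away a common shift of −0.49, more than the median change of −0.37, and the median change became 0.13. Those 20 were all among the 76. Of the fallen genes named here, CCL3, CCL4, MAFF, ZC3H12A, MEF2C, PBX3, NIFK, COA1, RSRC2, MYT1L, FCHO1, SNAP91, KCTD10 and GNAI1 still fell after centring, and the others no longer passed.

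**Figure D1:**
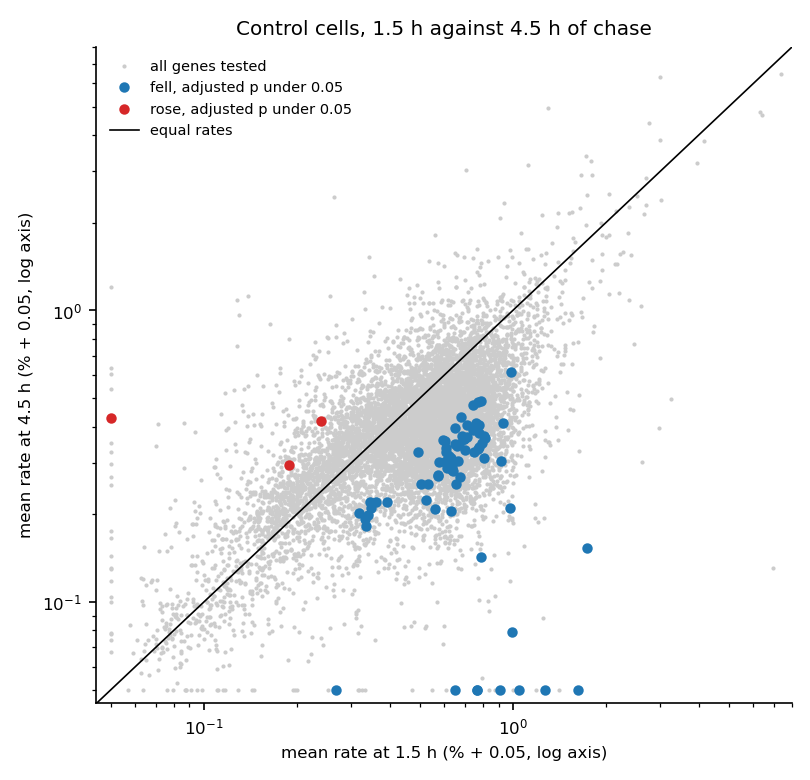
Mean conversion rate of each tested gene in control cells at 1.5 h (x axis) and 4.5 h (y axis), both in percent plus 0.05 on log axes, with genes that fell in blue and genes that rose in red; 1 gene that fell is drawn in grey. Most points lie under the line of equal rates, and genes with both 4.5 h libraries listed at 0 lie along the bottom edge.

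The 76 fallen genes included 71 protein-coding genes, and 65 had a CPM at or above the median of 21.6. In all 76 the 2 groups of libraries did not overlap. In 8 of them both 4.5 h libraries were listed at 0, so their fitted change depends on the pseudocount. Over the other 68 the fitted change ran from −0.60 to −3.67, with a median of −0.99. The median mean rate of these 68 genes went from 0.602% to 0.261% within the window, and was 0.824% at 0 h and 0.212% at 7.5 h.

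The mRNAs of 3 chemokines fell. CCL3 (ENSG00000277632, chromosome 17, 36088256 to 36090169) encodes a chemokine that draws in monocytes and other leukocytes. Its rate was 0.703% and 0.697% at 1.5 h and 0.286% and 0.266% at 4.5 h, a change of −1.20 (SE 0.103, limma adjusted p = 0.0245). The means differed 2.54-fold, far beyond the spread within each pair. Its neighbour CCL4 (ENSG00000275302, 36103590 to 36105621) read 0.53% and 0.495% at 1.5 h against 0.157% and 0.159% at 4.5 h. That change was −1.43 (SE 0.163, limma adjusted p = 0.0256). CCL2, which encodes a monocyte attractant, read 0.93% and 0.938% and then 0.534% and 0.595%, a smaller change of −0.68 (limma adjusted p = 0.0276). A gene antisense to CCL3 overlaps it, and reads of the 2 strands may not have been told apart. CCL3 and CCL4 also have near-identical gene copies nearby, and how reads were shared among copies is not given, so both values are uncertain to that extent.

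These were the 3 that fell of 28 tested genes for chemokines, cytokines and NF-kB feedback, against 0.721% of all genes. None of the 28 rose. In 19 the libraries were lower at 4.5 h without overlap (67.9%, against 45.3% of all genes). In 2 they were higher (7.14%, against 11.2%). The list median was −0.76 against −0.37 for all genes. NFKBIA, the inhibitor that NF-kB induces against itself, read 0.394% and 0.491% and then 0.168% and 0.191%, which did not pass (−1.10, limma adjusted p = 0.057).

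Among 17 tested immediate early transcription factors, 1 fell (against 0.721% of all genes) and none rose. Without overlap 14 were lower (82.4%, against 45.3% of all genes). The median rate of the members went from 0.613% at 1.5 h to 0.241% at 4.5 h. MAFF, a small Maf factor, fell: it read 0.491% and 0.714% at 1.5 h and was listed at 0 in both 4.5 h and both 7.5 h libraries. Its CPM was 7.04. FOS, a subunit of the AP-1 factor, read 0.454% and 0.803% and then 0.116% and 0.121% (−1.96, limma adjusted p = 0.0675). JUN, its partner, read 0.744% and 0.554% and then 0.199% and 0.109% (−1.80, limma adjusted p = 0.137). NR4A2, an orphan nuclear receptor, read 0.59% and 1.02% and then 0.242% and 0.239% (−1.51, limma adjusted p = 0.0887). In each of these 3 genes the pairs did not overlap. The replicates stood far apart at 1.5 h in FOS and NR4A2, and at both times in JUN.

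Genes for mRNA decay and for MAP kinase feedback, some of which are themselves known for unstable transcripts, had medians below that of all genes. Of 29 tested decay factors, 1 fell (against 0.721% of all genes) and none rose, with a median of −0.77. Without overlap 19 were lower (65.5%, against 45.3% of all genes) and 3 higher (10.3%, against 11.2%). ZC3H12A, an RNase that cuts inflammatory mRNAs, was the one that fell, from 0.599% and 0.831% to 0 in both 4.5 h libraries (CPM 9.92). It read 0.0671% and 0.1% at 7.5 h. CNOT4, a ubiquitin ligase of the CCR4-NOT deadenylase, read 0.804% and 0.721% and then 0.23% and 0.279% (−1.42, limma adjusted p = 0.0509). DUSP6, a phosphatase that inactivates ERK, read 0.52% and 0.606% and then 0.093% and 0.139% (−1.89, limma adjusted p = 0.109). None of the 4 tested feedback genes passed, and 3 were lower without overlap (75%, against 45.3% of all genes). Their median of −1.34 rests on few genes. In SPRY1 the mean rate went from 1.54% to 1.67% although the fitted change was −1.36.

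**Figure D2:**
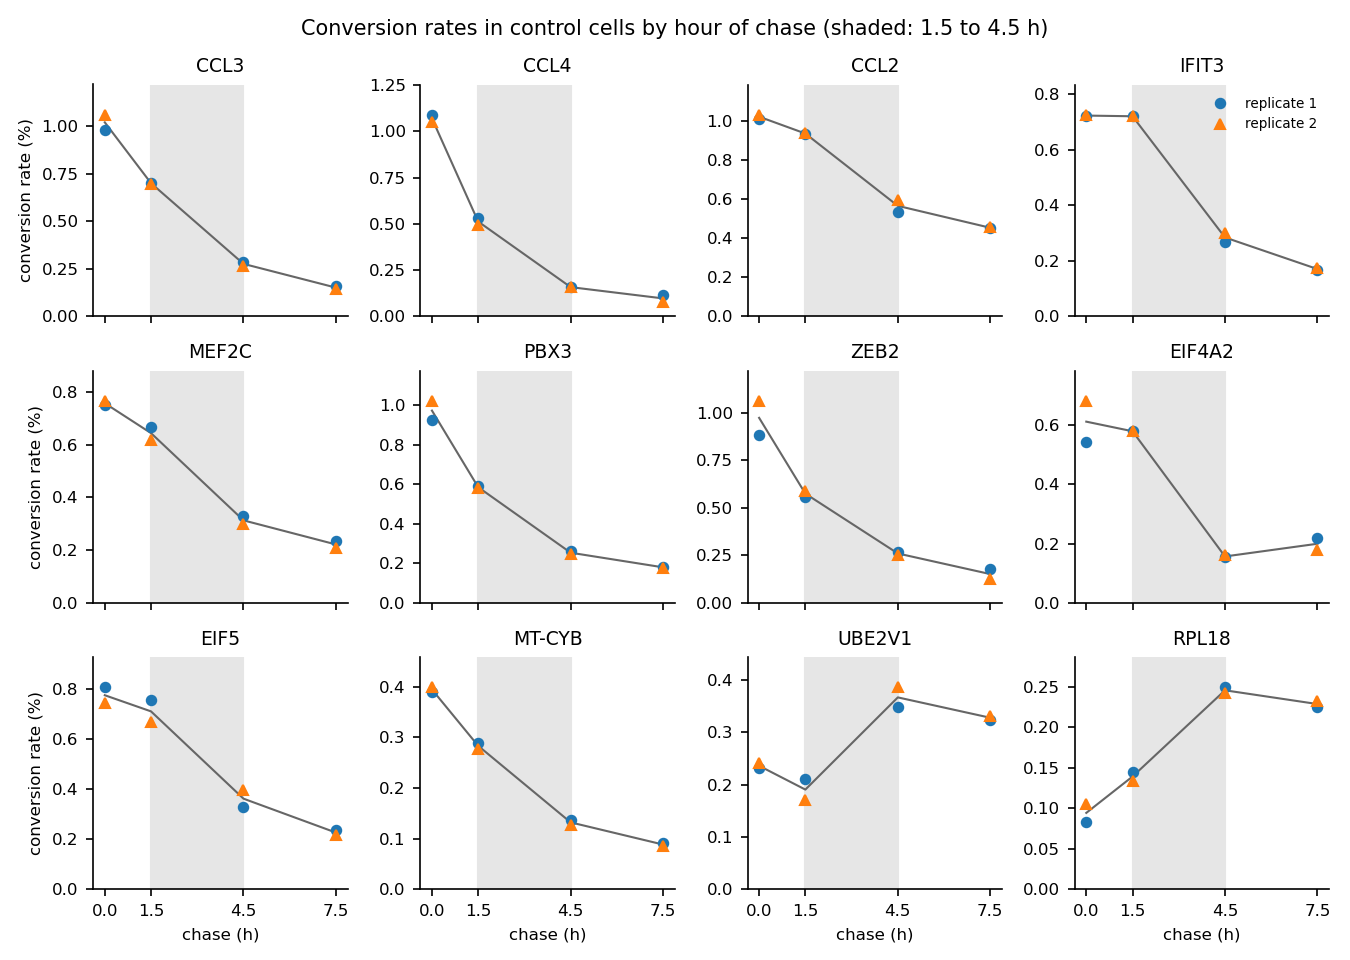
Conversion rate in percent (y axis, from 0, scaled per gene) against hours of chase (x axis) for 12 genes in control cells, with 1 symbol per replicate, a line through the means and the 1.5 to 4.5 h window shaded. In the 10 falling genes the 4.5 h pair lies wholly below the 1.5 h pair, and in UBE2V1 and RPL18 wholly above it.

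Transcription factors of myeloid and MLL-rearranged leukaemia were nearly all lower at 4.5 h, and 3 abundant ones fell. THP-1 carries an MLL fusion, and the list holds factors linked to it and to the monocytic lineage. Of 28 tested members 3 fell (against 0.721% of all genes) and none rose, with a median of −0.73. At 4.5 h 27 were lower without overlap (96.4%, against 45.3% of all genes).

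MEF2C (ENSG00000081189, chromosome 5, 88717117 to 88904257), a MADS-box factor, went from 0.668% and 0.619% to 0.328% and 0.297%. The change was −0.94 (SE 0.0846, limma adjusted p = 0.0245), and the means were 0.643% ± 0.035 (SD, n = 2) and 0.312% ± 0.022 (SD, n = 2). PBX3, a HOX cofactor, went from 0.591% and 0.578% to 0.261% and 0.245% (−1.07, limma adjusted p = 0.0249). ZEB2, a zinc finger repressor, went from 0.558% and 0.589% to 0.268% and 0.25% (−1.01, limma adjusted p = 0.0276). Antisense genes overlap MEF2C and ZEB2. RUNX1, a core haematopoietic factor, read 0.579% and 0.518% and then 0.156% and 0.24%, and did not pass (−1.29, limma adjusted p = 0.0537).

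Regulators of cell cycle entry and the p53 pathway had a median of −0.83 over 17 tested genes. None passed, 14 were lower without overlap (82.4%, against 45.3% of all genes) and 1 was higher (5.88%, against 11.2%). CDKN1A, the p21 inhibitor, read 0.767% and 0.952% and then 0.256% and 0.287% (−1.49, limma adjusted p = 0.057). BCL2L11, which encodes the death factor BIM, read 0.588% and 0.452% and then 0.076% and 0.129% (−1.91, limma adjusted p = 0.0698). PMAIP1, which encodes NOXA, read 0.891% and 0.686% and then 0.244% and 0.362% (−1.26, limma adjusted p = 0.071).

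Genes of mitosis had a median close to the −0.37 of all genes and those of S phase one below it, and none passed the test. Of 38 tested mitotic genes, 23 were lower without overlap (60.5%, against 45.3% of all genes) and 2 were higher (5.26%, against 11.2%), with a median of −0.40. CDCA8, of the chromosomal passenger complex, read 0.859% and 0.861% and then 0.38% and 0.395% (−1.06, limma adjusted p = 0.103). Of 36 S phase genes, 20 were lower (55.6%) and 7 higher (19.4%) without overlap, both shares above those of all genes, and the median was −0.56. GMNN, the replication licensing inhibitor geminin, read 1.14% and 1.02% and then 0.447% and 0.258% (−1.53, limma adjusted p = 0.057). Of 8 tested replication-dependent histone genes 1 fell, against 0.721% of all genes. It was H4C3, which went from 0.664% and 0.593% to 0.381% and 0.385% (−0.65, limma adjusted p = 0.0478). Histone H4 genes are alike in sequence, which makes this value uncertain too.

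The m6A machinery, the system on which ALKBH5 acts, had 17 tested genes. None passed, and the median was −0.50. Without overlap 14 were lower (82.4%, against 45.3% of all genes) and 1 was higher (5.88%, against 11.2%). WTAP, an adaptor of the methyltransferase, read 0.669% and 0.682% and then 0.267% and 0.296% (−1.13, limma adjusted p = 0.057). YTHDF2, a reader that recruits deadenylases, read 0.737% and 0.7% and then 0.242% and 0.353% (−1.16, limma adjusted p = 0.104). A list of zinc finger genes with ZNF symbols, which mixes several domain types, had a median of −0.79 over 40 tested members. None of them passed, and 25 were lower without overlap (62.5%, against 45.3% of all genes). ZNF24 read 0.615% and 0.683% and then 0.225% and 0.239% (−1.31, limma adjusted p = 0.0696).

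Mitochondrially encoded mRNAs had the highest share of calls among the lists. Of 13 tested, 8 fell, against 0.721% of all genes (MT-CYB, MT-ATP6, MT-CO2, MT-ATP8, MT-ND4, MT-ND1, MT-ND5 and MT-ND4L), and all 13 were lower at 4.5 h without overlap, against 45.3% of all genes. The list median was −0.74. After centring on the library medians none of the 13 fell, and the list median was −0.25 against 0.13 for all genes. Their rates were low and close between replicates, and their median CPM of 442 was high. Of all 2637 genes in the highest of 4 equal bins of CPM, 63 fell. MT-CYB, which encodes cytochrome b of complex III, read 0.289% and 0.278% at 1.5 h and 0.137% and 0.127% at 4.5 h (−0.88, SE 0.112, limma adjusted p = 0.0256). MT-CO2, of complex IV, went from 0.279% and 0.288% to 0.142% and 0.143% (−0.79, limma adjusted p = 0.0256). MT-ATP6 and MT-ATP8 overlap, as do MT-ND4 and MT-ND4L, so those pairs share reads.

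MT-ND6 stood apart from the other 12. It is the mRNA encoded on the opposite strand of the mitochondrial genome, and it read 0.0425% and 0.0418% at 1.5 h and 0.039% and 0.0376% at 4.5 h (−0.06, limma adjusted p = 0.834). The mean rates of the other 12 ran from 0.245% to 0.343% at 1.5 h and from 0.121% to 0.171% at 4.5 h. Whether the rates were read by strand is not given in the sources used here.

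Nuclear-encoded respiratory chain genes went the other way. Of 72 tested, 37 were higher at 4.5 h without overlap (51.4%, against 11.2% of all genes). Another 7 were lower (9.72%, against 45.3%), although none of the 72 passed the test. The list median was 0.22, and the median member rate was 0.174% at 1.5 h and 0.208% at 4.5 h, between 0.137% at the start of the chase and 0.227% at its end. COX7A2, a subunit of complex IV, read 0.164% and 0.153% at 1.5 h and 0.213% and 0.201% at 4.5 h (0.30, limma adjusted p = 0.073). UQCR10, of complex III, read 0.172% and 0.17% and then 0.247% and 0.229% (0.38, limma adjusted p = 0.0833). NDUFA11, of complex I, read 0.134% and 0.0886% and then 0.217% and 0.202% (0.70, limma adjusted p = 0.0993). Centred on the library medians, 32 of the 72 rose (against 2.84% of all genes) and none fell (against 0.19%). The list median was then 0.72 against 0.13 for all genes.

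Cytoplasmic ribosomal protein genes were also higher more often than lower. Of 80 tested, 1 rose (against 0.0284% of all genes) and none fell (against 0.721%), and the median was 0.16. Without overlap 32 were higher (40%, against 11.2% of all genes) and 6 lower (7.5%, against 45.3%). RPL18 (ENSG00000063177, chromosome 19, 48615328 to 48619536), a protein of the large subunit, was the one that rose. It went from 0.145% and 0.133% to 0.249% and 0.242% (0.65, SE 0.097, limma adjusted p = 0.0378). RPL37 read 0.177% and 0.195% and then 0.283% and 0.272% (0.47, limma adjusted p = 0.061). RPS6 read 0.141% and 0.14% and then 0.206% and 0.211% (0.44, limma adjusted p = 0.0696). Ribosomal protein genes have many processed pseudogenes, and how reads were split among such copies is not given. The 389 processed pseudogenes tested had a median change of 0.25, and 7.2% were lower without overlap.

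The actin cytoskeleton list had a median of 0.15 over 20 genes, with none past the test. Without overlap 10 were higher (50%, against 11.2% of all genes) and 3 lower (15%, against 45.3%). CFL1, the filament-severing protein cofilin, read 0.134% and 0.115% and then 0.175% and 0.186% (0.40, limma adjusted p = 0.0842). Proteasome subunits had a median of 0.12 over 31 genes, with 12 higher (38.7%) and 7 lower (22.6%). Heat shock proteins had a median of 0.06 over 20 genes, with 8 higher (40%) and 3 lower (15%). HSPE1, a mitochondrial co-chaperonin, read 0.248% and 0.218% and then 0.318% and 0.311% (0.37, limma adjusted p = 0.107). Glycolytic enzymes had a median of −0.05 over 13 genes, lysosomal genes of −0.08 over 28, and monocytic markers of 0.08 over 22, and none of their members passed. LST1, at a CPM of 9574, read 0.219% and 0.212% and then 0.276% and 0.238% (0.21, limma adjusted p = 0.218).

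The other gene that rose with detected label throughout was UBE2V1 (ENSG00000244687, chromosome 20, 50081124 to 50115959), a partner of the ubiquitin-conjugating enzyme UBC13. It read 0.211% and 0.17% at 1.5 h and 0.348% and 0.386% at 4.5 h (0.80, SE 0.116, limma adjusted p = 0.0378). A read-through gene shares its exons, so its reads may be split between them. SLC37A4, a glucose-6-phosphate transporter, was listed at 0 in both 1.5 h libraries and read 0.45% and 0.305% at 4.5 h. It was listed at 0 at 0 h and 7.5 h as well, at a CPM of 11.8.

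**Figure D3:**
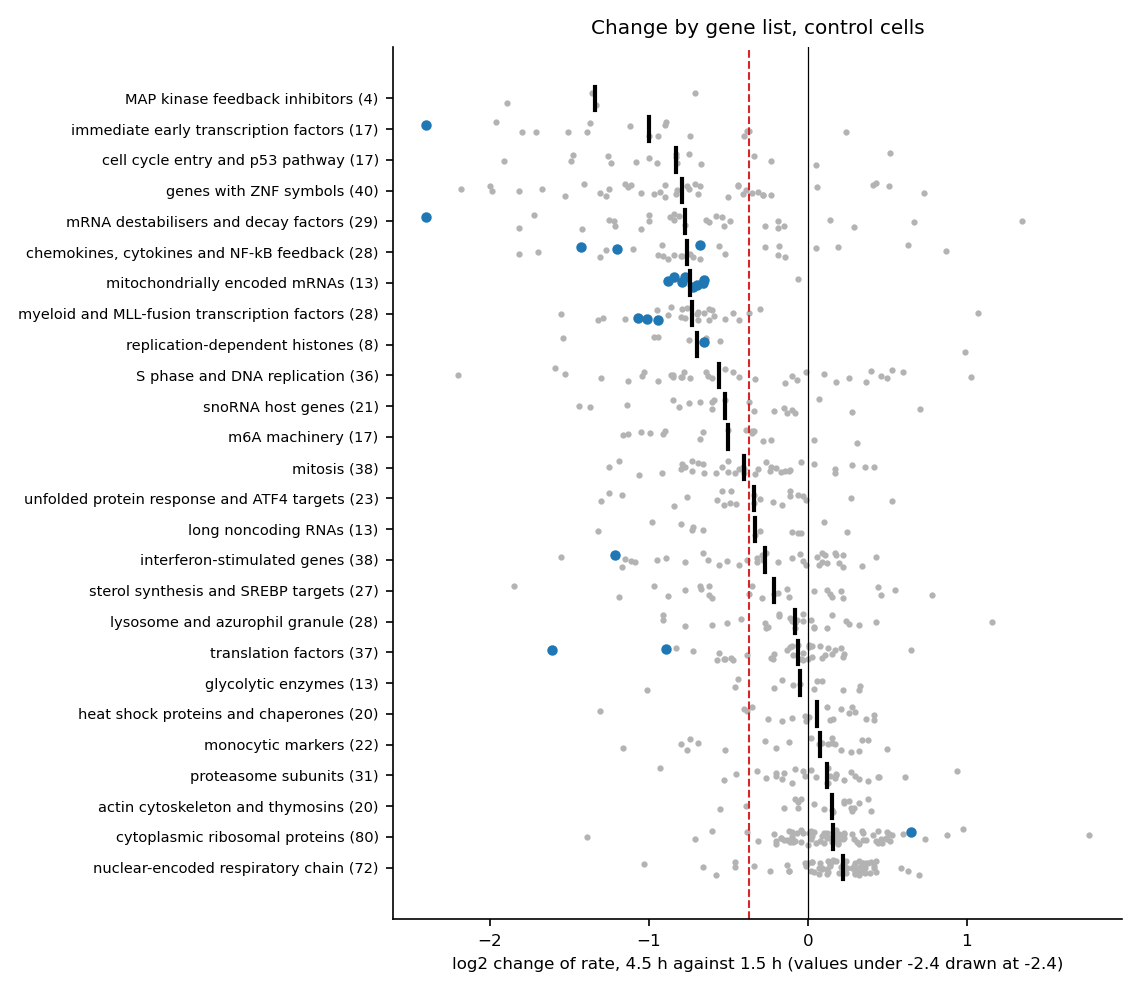
Log2 change of the conversion rate from 1.5 to 4.5 h (x axis) for each tested member of 26 gene lists in control cells, with the number of members in brackets, blue points for genes past the test, black bars for list medians and a red dashed line at the all-gene median of −0.37. Lists run from a median of −1.34 for MAP kinase feedback inhibitors, with only 4 genes, to 0.22 for the nuclear-encoded respiratory chain.

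Lists between these ends were mixed. Of 37 translation factors 2 fell (against 0.721% of all genes) and none rose, with a median of −0.06. The fallen ones thus differed from most of their list. EIF4A2, an RNA helicase of translation initiation, read 0.58% in both 1.5 h libraries and 0.153% and 0.16% at 4.5 h. Its change of −1.61 (SE 0.249, limma adjusted p = 0.0412) was the largest among fallen genes at or above the median CPM with label in all 4 libraries. EIF5, which sets the start codon, went from 0.753% and 0.666% to 0.326% and 0.396% (−0.89, limma adjusted p = 0.0256).

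Of 38 interferon-stimulated genes 1 fell (against 0.721% of all genes), and the median was −0.27. Without overlap 20 were lower (52.6%, against 45.3% of all genes) and 8 higher (21.1%, against 11.2%). IFIT3, which binds viral RNA together with IFIT1, went from 0.722% and 0.721% to 0.269% and 0.3% (−1.21, SE 0.164, limma adjusted p = 0.0327). IFIT2 read 0.637% and 0.545% and then 0.207% and 0.265% (−1.17, limma adjusted p = 0.0598). Both lie within LIPA on the opposite strand, which read 0.0717% and 0.0589% and then 0.0452% and 0.0468% (−0.26, limma adjusted p = 0.224). Unfolded protein response genes had a median of −0.34 over 23, sterol synthesis genes of −0.21 over 27, snoRNA host genes of −0.52 over 21 and long noncoding RNAs of −0.33 over 13, and none of these passed.

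Several large falls lay outside the lists. NIFK, a nucleolar partner of the proliferation antigen Ki-67, went from 0.758% and 0.98% to 0.245% and 0.266% (−1.58, limma adjusted p = 0.0256). ZNF438, a zinc finger gene, and COA1, a complex IV assembly factor, changed by −1.37 and −1.33. The next, 4 chromatin and transcription regulators, were SS18 at −1.23, ARID1B at −1.20, ELF1 at −1.19 and ANKRD11 at −1.17. The first 2 encode subunits of the BAF remodelling complex, and ELF1 encodes an ETS factor. LUC7L3 at −1.19 and RSRC2 at −1.18 encode proteins with arginine-serine repeats, a feature of splicing regulators. The adjusted p of these genes (limma) ran from 0.0256 for NIFK, RSRC2 and COA1 to 0.0494 for LUC7L3. Genes on the opposite strand overlap EIF4A2, NIFK, COA1 and ELF1.

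The median change was more negative in longer genes. With genes put in 4 equal bins of 3′ UTR length, over genes with a coding transcript, the median change was −0.17, −0.35, −0.48 and −0.58 from the shortest to the longest. In 4 bins of gene span, introns included, it was −0.03, −0.25, −0.46 and −0.62, and the share of genes lower without overlap was 25.4%, 38.9%, 52.4% and 64.5%. The median span was 81.2 kb for the fallen genes, 37.6 kb for all tested genes with an annotation and 9.24 kb for genes that rose after centring. In 4 bins of CPM the median change was −0.47, −0.46, −0.42 and −0.14, so the most abundant bin was closest to 0. The same bins held 6, 5, 2 and 63 of the 76 fallen genes, so most calls lay in the most abundant bin. These figures are descriptions of overlapping features, and which of them the change followed was not tested.

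The TATTTAT motif, counted on the transcript strand of 8849 protein-coding genes with a 3′ UTR, occurred in 2797 of them (31.6%). It occurred in 31 of 62 fallen genes (50%) and in none of the 3 that rose, with median 3′ UTR lengths of 1392 bases for fallen genes and 1026 for all. The median change was −0.31 with no copy, −0.54 with 1, −0.61 with 2 and −0.63 with 3 or more. Genes with more copies had longer 3′ UTRs, with medians from 656 to 4702 bases. Among UTRs over 1000 and up to 2000 bases the median was −0.44 without and −0.56 with the motif, and among those over 500 and up to 1000 bases it was −0.34 and −0.51. By list, 19 of 28 decay factors (67.9%) and 9 of 17 immediate early factors (52.9%) held the motif. It occurred in 7 of 80 ribosomal protein genes (8.75%) and 10 of 72 respiratory chain genes (13.9%). The median 3′ UTR lengths of these lists were 1894, 1222, 87 and 218 bases, in that order. The lists thus differed in UTR length as well.

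**Figure D4:**
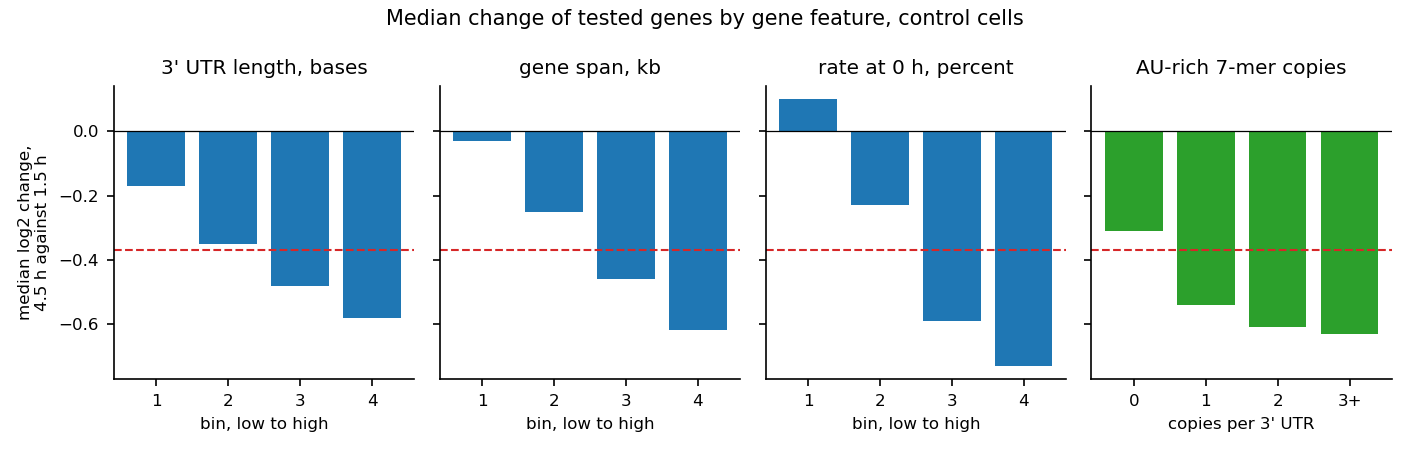
Median log2 change from 1.5 to 4.5 h (y axis) in control cells by 4 equal bins of 3′ UTR length, gene span and rate at 0 h, and by copies of the AU-rich 7-mer in the 3′ UTR, with a red dashed line at the all-gene median of −0.37. The change is more negative at each step, from −0.17 to −0.58 for 3′ UTR length and from −0.31 to −0.63 for the motif.

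Rates drew together over the window. In 4 equal bins of the rate at 0 h, the median change was 0.10, −0.23, −0.59 and −0.73 from the least to the most labelled genes. The median rate of these bins was 0.198%, 0.441%, 0.564% and 0.635% at 1.5 h, and 0.215%, 0.369%, 0.366% and 0.359% at 4.5 h. At 4.5 h the 3 upper bins thus had nearly the same median rate.

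The change per hour was next compared with the early (0 to 1.5 h) and late (4.5 to 7.5 h) stretches, which share libraries with the middle one. The median change per hour was −0.10 early, −0.12 in the middle and −0.08 late. No gene differed between the middle and the early stretch (limma, smallest adjusted p = 1), with 284 lower and 168 higher genes at an unadjusted p under 0.05. The smallest p values among genes at or above the median CPM belonged to ZNG1E, NIT1 and NDUFB10. ZNG1E, of a family of near-identical copies and so uncertain, read 1.13% and 0.815% before the chase, then 0.271% and 0.224% at 1.5 h, then 0.325% and 0.333% at 4.5 h. Its rate was thus at its lowest level of these times at 1.5 h.

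Between the middle and the late stretch 1 gene differed (0.00948% of those tested), with 511 lower and 259 higher genes at an unadjusted p under 0.05. It was MYT1L, a neuronal zinc finger gene at a CPM of 10.6, which read 0.717% and 1% at 1.5 h and was listed at 0 in both 4.5 h libraries. It then read 6.37% and 6.26% at 7.5 h. The call ended without any 1 of the libraries at 1.5, 4.5 or 7.5 h. FCHO1, a clathrin-coat nucleator, read 0.267% and 0.171%, then 0 in both 4.5 h libraries, then 0.481% and 0.268%, and did not pass that test (limma adjusted p = 0.0749).

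The lists had their lowest changes per hour at different times. The median rate of the immediate early factors, 0.937% before the chase and 0.165% at its end, took median changes per hour of −0.45, −0.33 and −0.09 in the 3 stretches. Mitotic genes held 0.675% and 0.653% at the first 2 times and 0.505% and 0.338% at the others, with changes per hour of −0.03, −0.13 and −0.13. Ribosomal protein genes went from 0.161% through 0.173% and 0.196% to 0.21%. These differences in timing were not tested.

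**Figure D5:**
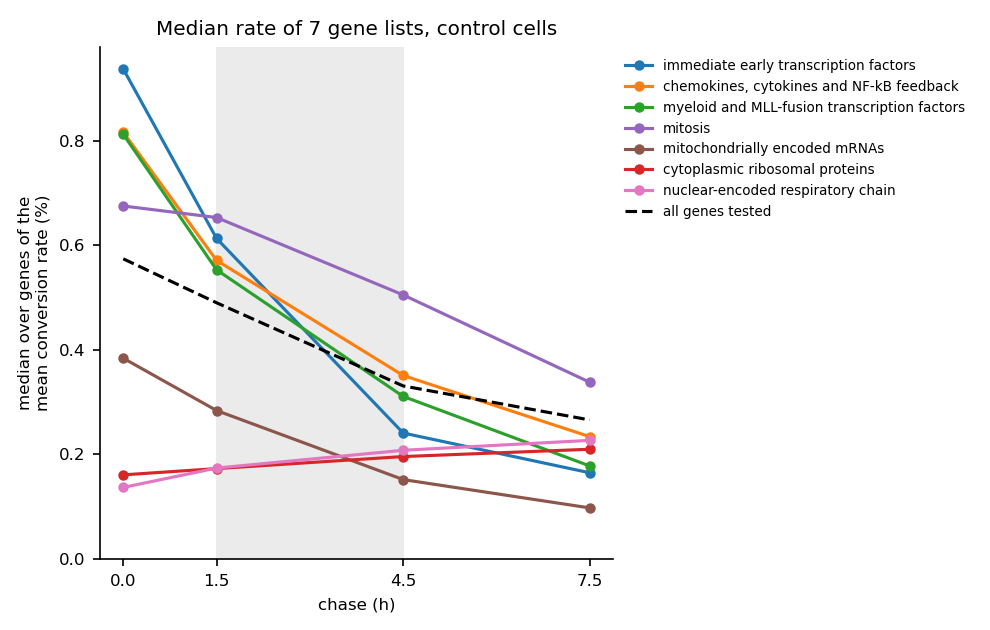
Median over genes of the mean conversion rate in percent (y axis) against hours of chase (x axis) for 7 gene lists and for all tested genes (dashed) in control cells, with the 1.5 to 4.5 h window shaded. Immediate early factors fall from 0.613% to 0.241% within the window, while ribosomal protein genes go from 0.173% to 0.196%.

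The same window was set against the A5-KD cells, whose columns were identified by elimination. Library medians there went from 1.11% and 1.1% to 0.746% and 0.748%, above those of control at both times. The median change was −0.42, and 959 genes fell (9.09%) and 62 rose (0.588%) in the fit of all 16 libraries. With the spread from the same 16 libraries, 1009 genes fell (9.57%) and 58 rose (0.55%) in control. The median replicate SD on the log2 scale was 0.22 and 0.26 in control at 1.5 and 4.5 h and 0.18 and 0.21 in A5-KD, so counts of calls cannot be compared between the arms.

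No gene differed between the arms in its change from 1.5 to 4.5 h (limma interaction, smallest adjusted p = 0.0895), with 248 lower and 204 higher genes at an unadjusted p under 0.05. Median rates were lower in control, where the added 0.05 percentage points shrink a change more than in A5-KD. Of the 76 genes that fell in control, 75 had a change below 0 in A5-KD, with a median of −0.85. Of all tested genes 74.2% had a change below 0 there, with the median of −0.42 given above. DDX3X and PDE4D were among the 3 genes with the smallest p values at or above the median CPM. DDX3X, an RNA helicase, read 0.587% and 0.492% and then 0.554% and 0.518% in control, and 1.57% and 1.71% and then 0.774% and 0.827% in A5-KD. Its changes were −0.01 and −0.99, a difference of −0.98 (SE 0.23, limma adjusted p = 0.961). PDE4D, a cyclic AMP phosphodiesterase, changed by −0.54 in control and −1.92 in A5-KD (difference −1.39, limma adjusted p = 0.961). ZC3H12A, at 0 in control at 4.5 h, read 0.837% and 1.11% and then 0.723% and 0.659% in A5-KD (limma adjusted p = 0.0895 for the difference).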

How the data were processed

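Each library of polyadenylated RNA had 1 value per gene in the deposited table, a fraction between 0 and 1, which was read from the assay and the values as the T-to-C conversion rate and is printed in percent. Per the file headers the table also holds a CPM column, which was used to filter genes and set the variance trend, and a gene length (not used). The submitters' processing notes list HISAT2 2.1.0, CASAVA and hg38. For the tool that made the rates, the masking of variants, the strand setting and the annotation, the entry is: not given in the sources used here. Libraries that never saw 4sU were not analysed here, and the mismatch background was not measured.

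Rates plus 0.05 percentage points were fitted on the log2 scale with limma 3.58.1 (R 4.3.3), with 4 group means over 8 control libraries, a variance trend on log2(CPM + 0.01) and Benjamini-Hochberg adjustment at 0.05. A fold change on this scale understates the change of low genes. The A5-KD difference was an interaction over 16 libraries. Settings tried were pseudocounts of 0.01 and 0.2, CPM minimums of 1 and 20, filters on the rate, the libraries sharing the spread, a replicate block, no variance trend, a logit scale, centring and leaving out each library. Simulated data were used to test the fit.

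Symbols came from the table and the gene name reference (60295 of 60564 genes), and positions and 3′ UTRs from GENCODE 29 (58457 matched), with 1 transcript per gene. The text names the 15 largest falls and 10 largest rises among genes past the test, at or above the median CPM, with label in all 4 libraries and no overlap, up to 4 members per list by p, and the 3 smallest p per contrast where none passed. Which of these appear, and other genes named, were chosen after their values were seen. A few genes that met the rule are not reported here. The comparison and the lists were chosen with earlier results of these data known, and the bins of gene span and of the 0 h rate after seeing the data.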

Additional observations from a re-analysis of the deposited data

Results flagged for a closer look

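MYT1L was the gene whose change per hour differed between the middle and the late stretch of the chase. The difference was −3.72 log2 per hour (SE 0.288, limma adjusted p = 0.0155), the middle change being −1.39 per hour and the late one 2.33. Both 4.5 h libraries were listed at 0 for it, so the size depends on the pseudocount and ran from −5.24 with 0.01 to −2.47 with 0.2. The call ended without any 1 of the libraries at 1.5, 4.5 or 7.5 h. Without 4.5 h replicate 1 another gene, MYO18B-AS1, passed instead.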

How the results depend on the processing

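Depth is unknown, each group held 2 libraries, and unlabelled libraries were not analysed here, so small changes of low rates were not detectable. Counts are given as genes that fell and rose between 1.5 and 4.5 h in control (76 and 3 as reported), then after centring on the library medians (20 and 299), from limma throughout. With a pseudocount of 0.01 they were 22 and 1, then 11 and 168, and with 0.2 they were 284 and 10. With a CPM minimum of 1 the counts were 29 fallen, and 196 risen after centring, and with 20 they were 351 and 21, then 34 fallen after centring. Requiring a rate above 0 in all 4 libraries left 12 fallen after centring. With only the 4 libraries compared, all counts were 0, before and after centring, with 2128 lower and 289 higher genes at an unadjusted p under 0.05 before it. With the spread of all 16 libraries they were 1009 and 58, then 114 and 669. Without the variance trend they were 4 and 1, then 2 and 1. The causes were not tested beyond the fewer or more libraries and genes that a setting uses.

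Leaving out each library in turn gave 0 to 100 fallen and 0 to 5 risen genes, and after centring 0 to 23 and 1 to 258. None of the 76 falls and 3 rises held without any 1 library at 0, 1.5 or 4.5 h, and without 4.5 h replicate 1 another gene was called as risen. On simulated data the fit recovered the size of the changes and called few of them at this number of libraries. Those changes were added on the fitted scale to normal noise, with no rates listed at 0. The simulation therefore does not show how the fit treats such rates or low ones.

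The labels do not say whether replicate numbers pair the samples. Per-gene differences between replicates, after centring on the library medians, correlated at −0.0126 between 1.5 and 4.5 h. Centring takes away any shift shared by all genes of a library, so this value does not settle whether samples were paired. A fit with the replicate number as a block gave 16 fallen and 0 risen genes, and 13 fallen after centring.

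The median change of −0.37 was −0.42 and −0.26 with pseudocounts of 0.01 and 0.2, and −0.40 and −0.28 with CPM minimums of 1 and 20. It was −0.37 to −0.33 without each library in turn. Centring turned it to 0.13 and MT-ND6 to 0.43. For the middle against the late stretch (1 gene), the count was 5 with a pseudocount of 0.01, 0 with a CPM minimum of 20 or a rate above 0 in all 4 libraries, 4 with the spread of 16 libraries and 4 without the trend, and 0 to 1 without each library. The middle against the early stretch stayed at 0 genes in every setting run. For A5-KD against control (0 genes), it was 2 with a pseudocount of 0.01, 2 with a CPM minimum of 1, 2 without the trend, and 0 to 2 without each library. The 2 passed without control 1.5 h replicate 1. Of the other values for single genes, 1222 kept their side of the threshold, 316 no longer passed, 91 passed newly and 1 changed sign.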

Other observations

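Mitochondrial tRNA genes differed by strand in their rates, as MT-ND6 did among the mRNAs. The 6 tested tRNA genes on the strand of the other 12 mRNAs had mean rates from 0.346% to 0.773% at 1.5 h and from 0.0806% to 0.393% at 4.5 h, with a median change of −0.88. The 6 on the opposite strand had mean rates from 0.0127% to 0.0543% at 1.5 h and from 0 to 0.124% at 4.5 h, with a median change of −0.03. None of the 12 passed the test. The ribosomal RNAs MT-RNR1 and MT-RNR2 had mean rates of 0.133% and 0.0662% at 1.5 h.

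Antisense genes as a class also had low rates. The 481 tested had a median rate of 0.224% at 1.5 h and 0.179% at 4.5 h, against 0.509% and 0.343% for 8981 protein-coding genes. Protein-coding genes overlapped by a gene on the opposite strand (3674) had a median change of −0.34, and those without such a neighbour (5307) one of −0.45.

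SNAP91, a coat adaptor at a CPM of 8.25, read 0.923% and 2.24% at 1.5 h and was listed at 0 in both 4.5 h and both 7.5 h libraries. KCTD10 and GNAI1 fell as well, by fitted changes of −3.67 and −3.57.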
